A study of Mus musculus with 4 samples.

Results

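Transforming growth factor beta (TGF-beta) signalling was examined through 10 genes, Tgfb1, Tgfb2, Tgfb3, Tgfbr1, Tgfbr2, Tgfbr3, Inhba, Ltbp1, Ltbp2 and Tgfbi, in mouse embryonic fibroblasts (MEFs, cells grown out of embryos) with and without Ip6k1, which encodes an inositol hexakisphosphate kinase. The genes were chosen by their role as ligands, receptors, latency proteins or a matrix protein of the pathway, and their probes by the gene name that the array files give. They took 14 of the 41174 probes on the array and 10 of its 27827 gene names, and all 10 matched a mouse gene identifier of the RefSeq table. The study compared 2 Ip6k1+/+ lines with 2 Ip6k1-/- lines by hybridizing Cy3-labelled RNA of each to its own Agilent whole-genome array, and all 4 arrays lay on 1 slide. Each line came from a different E14 embryo (embryonic day 14), and the 4 embryos had the same heterozygous mother and father. The null allele was carried in the germline, so that every cell of an Ip6k1-/- embryo carried it. All 4 lines, controls included, had been immortalised with SV40 large T antigen, frozen, thawed and passaged 2 times, and none received a further treatment. The question was which transcripts differ in level when Ip6k1 is missing.

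TGF-beta ligands are secreted bound to their own propeptide, and in most cells this latent complex is tethered to a latent TGF-beta binding protein in the matrix. Integrins, proteases or thrombospondin release the active ligand, which joins the type II receptor Tgfbr2 with the type I receptor Tgfbr1, and the receptors phosphorylate SMAD proteins that enter the nucleus. In fibroblasts the pathway is best known for inducing collagens, fibronectin, contractile proteins and its own inhibitors.

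Of the 14 probes, 3 have sequences shown here because each is a 60-base stretch that measures a member discussed below, namely the ligands Tgfb1 and Inhba and a second probe of the receptor Tgfbr2. Coordinates of probes are those of the array files, whose headers give the build mm9. Whether a probe lies in an exon or an untranslated region was not analysed here. Probe A_51_P390715 of Tgfb1 lies at chr7:26489877-26489936 (plus strand), probe A_51_P239750 of Inhba at chr13:16118634-16118693 (plus strand), and probe A_52_P251403 of Tgfbr2 at chr9:116019196-116019255 (minus strand).
Tgfb1: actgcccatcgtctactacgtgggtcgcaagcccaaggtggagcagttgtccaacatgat
Inhba: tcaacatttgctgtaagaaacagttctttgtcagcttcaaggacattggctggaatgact
Tgfbr2: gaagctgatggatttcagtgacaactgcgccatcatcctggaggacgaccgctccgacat

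The promoters of 4 members follow, chosen with their values in view. In Tgfb2 and Ltbp2 replicate 1 was above replicate 2 in both genotypes, and Inhba and Tgfbi were the members with a genotype difference nearest to or past 2-fold. Tgfb3 had the same order of replicates but no promoter in the set used. The promoters are taken from RefSeq on GRCm38.p6, a later build than that of the probes, and span 300 bases around a transcript start. Capitals mark the SMAD box CAGAC or its reverse complement GTCTG, the core that SMAD proteins are known to bind, and the TATA box TATAAA. The promoter of Tgfb2 is at chr1:186705940-186706239 (minus strand), that of Ltbp2 at chr12:84876442-84876741 (minus strand), that of Tgfbi at chr13:56609336-56609635 (plus strand) and that of Inhba at chr13:16011601-16011900 (plus strand).
Tgfb2: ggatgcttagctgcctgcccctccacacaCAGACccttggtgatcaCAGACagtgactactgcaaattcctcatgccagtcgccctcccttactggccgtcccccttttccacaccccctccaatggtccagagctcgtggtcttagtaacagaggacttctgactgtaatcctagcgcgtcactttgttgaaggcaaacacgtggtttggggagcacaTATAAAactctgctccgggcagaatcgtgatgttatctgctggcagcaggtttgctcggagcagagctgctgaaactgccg
Ltbp2: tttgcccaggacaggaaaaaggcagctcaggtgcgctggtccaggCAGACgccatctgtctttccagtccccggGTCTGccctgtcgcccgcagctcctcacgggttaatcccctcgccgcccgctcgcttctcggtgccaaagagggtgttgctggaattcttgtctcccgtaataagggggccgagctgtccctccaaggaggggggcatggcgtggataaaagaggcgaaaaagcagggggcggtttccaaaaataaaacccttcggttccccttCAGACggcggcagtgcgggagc
Tgfbi: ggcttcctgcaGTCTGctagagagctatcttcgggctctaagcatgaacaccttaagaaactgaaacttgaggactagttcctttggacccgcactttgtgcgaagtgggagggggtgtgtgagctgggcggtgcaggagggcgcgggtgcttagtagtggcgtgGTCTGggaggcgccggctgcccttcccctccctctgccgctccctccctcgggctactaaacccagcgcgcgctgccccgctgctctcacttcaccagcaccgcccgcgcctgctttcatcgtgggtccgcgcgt
Inhba: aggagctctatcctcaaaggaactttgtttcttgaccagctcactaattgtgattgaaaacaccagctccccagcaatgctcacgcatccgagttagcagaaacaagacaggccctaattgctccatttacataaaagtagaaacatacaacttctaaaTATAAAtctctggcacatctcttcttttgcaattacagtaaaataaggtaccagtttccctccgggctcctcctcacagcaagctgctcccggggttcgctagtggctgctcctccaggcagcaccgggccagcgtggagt

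The table held 10 promoters for 8 members, with 2 each for Ltbp1 and Tgfbr1. A SMAD box on either strand was present in 7 of the 10, compared with 49.6% of all 32851 promoters of the same length. The Ltbp2 promoter held 3, a number reached or passed by 3.9% of all promoters, while those of Tgfb2 and Tgfbi held 2 and that of Inhba none. A TATA box, searched as TATAAA and TTTATA, was present in the promoters of Inhba and Tgfb2, and in 13.6% of all promoters. The AP-1 motif TGANTCA was found in none of the member promoters and in 7.81% of all. These are matches of letters within a short window, and binding was not measured.

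The targeted gene was measured first. The log2 signal of Ip6k1 probe A_51_P213766 reached 0.35 and 0.39 in the Ip6k1+/+ lines, whereas neither Ip6k1-/- line was well above background. For this probe the ratio of Ip6k1+/+ to Ip6k1-/- MEFs was at least 34.0-fold (limma, Benjamini-Hochberg adjusted p = 0.0356). Another probe, A_51_P103718, was well above background in every line, with log2 signals of 2.46 and 2.61 in Ip6k1+/+ MEFs against -1.98 and -1.23 in Ip6k1-/- MEFs, a ratio of 17.5-fold that did not pass the test (limma adjusted p = 0.368). All Ip6k1 probes were lower in both Ip6k1-/- lines, but the adjusted p of A_51_P213766 rose to 0.124 with normexp background correction, to 0.0756 with quantile normalization, to 0.143 with dim values set to a floor, to 0.243 with dim probes unfiltered, and to between 0.266 and 0.694 without 1 line. Here and below, log2 signal is given relative to the 75th percentile of the array, so that a value of 0 marks that percentile, and a bound is the ratio of the mean of the brighter genotype to the mean of the lowest signals called well above background on the arrays of the dimmer one.

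The arrays were similar in brightness, with a 75th percentile of the signal between 610 and 747 units and between 52.0% and 55.5% of probes well above background. Fibroblast markers were present, all 10 of those listed passed the filter on dim probes, and Col1a1, Col1a2 and Vim were saturated on at least 3 arrays. Lum passed through Ip6k1+/+ alone, since its signal in Ip6k1-/- replicate 2, at -6.95, was not well above background. Defining markers of endothelial cells (Pecam1, Cdh5, Tek and Tie1) and of skeletal muscle (Myod1, Myog, Des and Myf5) were not well above background in any line, and neither were the haematopoietic marker Ptprc nor the epithelial marker Cdh1. Some markers differed strongly between lines. Thy1, a surface protein of many fibroblasts, had log2 signals of 1.41 and 6.02 in Ip6k1+/+ MEFs against 3.98 and 5.52 in Ip6k1-/- MEFs. Xist, which is transcribed from the inactive X chromosome, was detected in 1 line of each genotype, replicate 1 of Ip6k1+/+ and replicate 2 of Ip6k1-/-, and the Y-linked Eif2s3y showed the opposite pattern, so that by these genes each genotype held a line of either sex. Of 5 endothelial markers Kdr alone was tested, with log2 signals of -3.66 and -3.99 in Ip6k1+/+ MEFs against -2.94 and -1.59 in Ip6k1-/- MEFs, and of 5 haematopoietic markers Cd68 alone, with -3.07 and -2.63 against -1.82 and -2.52. Both were dim and higher in the Ip6k1-/- lines, as Inhba was, and their part in the results below was not tested. Of 4 neural markers Tubb3 alone was tested, with -0.03 and 1.38 against -0.0025 and 1.68, higher in replicate 2 of both genotypes.

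All 10 members were well above background on all 4 arrays on at least 1 probe, so that none entered the tests through 1 genotype alone. Of the 14 probes, 12 entered the tests, and probes A_51_P280137 of Tgfbr1 and A_52_P3811 of Tgfbr2 were not well above background on any array. No member probe passed an adjusted p of 0.05 in either direction (0 of 12), whereas 0.0139% of the 21573 probes tested did, 3 in number. Every member probe had a limma adjusted p of 0.993. At an unadjusted limma p below 0.05, 1 of the 12 passed, that of Inhba, compared with 3.34% of all probes. The 2-fold cutoff of the study, applied to the mean of both lines, was met by 1 of the 12, that of Tgfbi, which was lower in Ip6k1-/- MEFs, compared with 4.11% of probes lower and 1.84% higher. With 1 probe per gene, the median difference over the 10 members was -0.37, beside 0.04 over all 14335 gene names tested, and 3 members had a positive and 7 a negative difference. This median rested on single lines, being 0.02 without Ip6k1+/+ replicate 1 and 0.26 without Ip6k1-/- replicate 2. The p-values measure the spread among these lines, with 2 embryos per genotype.

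**Figure D1:**
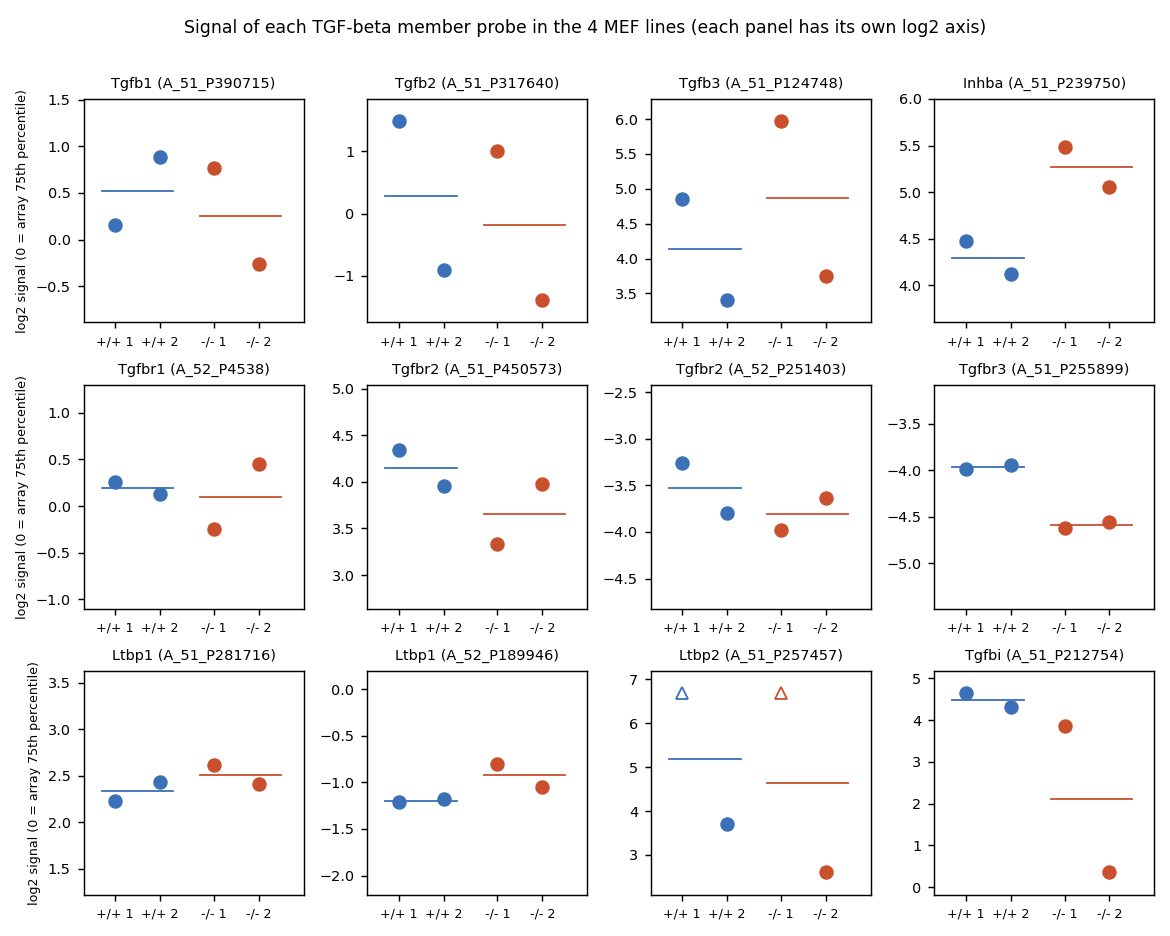
Log2 signal of the 12 member probes tested, in 1 panel per probe with its own vertical axis, where 0 is the 75th percentile of the array. Blue points are the Ip6k1+/+ lines and red points the Ip6k1-/- lines (replicates 1 and 2), horizontal lines are genotype means, and open triangles are saturated. The genotypes are apart for Inhba, Tgfbr3, Tgfbi and the second Ltbp1 probe, while for Tgfb2, Tgfb3 and Ltbp2 replicate 1 lies above replicate 2 in both genotypes.

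Among the ligands, Inhba stood apart between genotypes. It encodes the beta A subunit that forms activin A, a ligand signalling through the same SMAD proteins as TGF-beta. Its probe had log2 signals of 4.47 and 4.12 in Ip6k1+/+ MEFs against 5.49 and 5.06 in Ip6k1-/- MEFs, with replicate 1 given before replicate 2 here and below. Both Ip6k1-/- lines were above both Ip6k1+/+ lines, and the gap between lines was 0.36 within Ip6k1+/+ and 0.43 within Ip6k1-/-. The difference was 0.97 on the log2 scale (standard error 0.24, 95% interval 0.33 to 1.61), or 1.96-fold, with an unadjusted limma p of 0.0117 and an adjusted p of 0.993. Replicate 1 was 1.19 above the Ip6k1+/+ mean and replicate 2 was 0.76 above it. Centred on the array median in place of the 75th percentile, the difference was 1.02 and met the 2-fold cutoff. Among all gene names, 18.1% had both Ip6k1-/- lines above both Ip6k1+/+ lines, as did 1 of the 10 members. In RNA of whole cultures, fewer cells of a kind and less RNA per cell cannot be told apart.

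The 3 TGF-beta ligands proper showed no such separation. Tgfb1, the isoform most widely expressed in connective tissue, had log2 signals of 0.16 and 0.88 in Ip6k1+/+ MEFs against 0.77 and -0.26 in Ip6k1-/- MEFs. The genotypes overlapped, with an Ip6k1-/- line lowest and an Ip6k1+/+ line highest. The difference was -0.27 (standard error 0.46, 95% interval -1.48 to 0.95, limma adjusted p = 0.993). This probe is printed in 10 spots per array, whose signals ranged from 660 to 707 units in Ip6k1+/+ replicate 1, from 1338 to 1409 in replicate 2, from 1021 to 1056 in Ip6k1-/- replicate 1 and from 540 to 593 in replicate 2. The coefficient of variation between spots was between 1.03% and 2.83%, so that the lines differed by far more than the spots of 1 array. The spot-to-spot error covers the array alone and leaves out culture, RNA extraction and labelling.

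Tgfb2, the isoform best known from heart and eye development, differed more between lines than between genotypes. Its probe, A_51_P317640 (chr1:188447534-188447593, minus strand), had log2 signals of 1.49 and -0.91 in Ip6k1+/+ MEFs against 1.01 and -1.39 in Ip6k1-/- MEFs. Replicate 1 was above replicate 2 by 2.39 in each genotype, which is 5.26-fold. The genotype difference was -0.48 (standard error 1.12, 95% interval -3.42 to 2.46, limma adjusted p = 0.993).

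Tgfb3, known for its part in palate closure, followed the same order. Probe A_51_P124748 (chr12:87397804-87397863, minus strand) had log2 signals of 4.86 and 3.40 in Ip6k1+/+ MEFs against 5.97 and 3.75 in Ip6k1-/- MEFs. Replicate 1 was 2.74-fold above replicate 2 in Ip6k1+/+ and 4.66-fold above it in Ip6k1-/-, and the genotypes overlapped. The genotype difference was 0.73 (standard error 0.88, 95% interval -1.57 to 3.03, limma adjusted p = 0.993). The intervals of Tgfb2 and Tgfb3 include differences of 4-fold and more in at least 1 direction, so that the data do not show that these ligands are alike between genotypes.

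With 1 probe per gene, the differences of the 3 receptors were negative, from -0.62 to -0.09, and their 95% intervals included 0. That of Tgfbr1 turned to 0.26 without Ip6k1-/- replicate 1. Tgfbr1 encodes the type I receptor kinase, and its probe A_52_P4538 (chr4:47427421-47427480, plus strand) had log2 signals of 0.26 and 0.13 in Ip6k1+/+ MEFs against -0.25 and 0.45 in Ip6k1-/- MEFs. The Ip6k1-/- lines lay on either side of the Ip6k1+/+ lines, and the difference was -0.09 (standard error 0.32, 95% interval -0.94 to 0.75). Tgfbr2 encodes the type II receptor that binds the ligand first, and its brighter probe A_51_P450573 (chr9:115997155-115997214, minus strand) had log2 signals of 4.34 and 3.96 in Ip6k1+/+ MEFs against 3.34 and 3.98 in Ip6k1-/- MEFs. One Ip6k1-/- line was below the others, the other was level with the lower Ip6k1+/+ line, and the difference was -0.49 (standard error 0.30, 95% interval -1.27 to 0.29). The second Tgfbr2 probe, whose sequence is given above, was dim, with -3.26 and -3.80 in Ip6k1+/+ MEFs against -3.98 and -3.64 in Ip6k1-/- MEFs. It too was lowest in Ip6k1-/- replicate 1, and its difference was -0.28 (standard error 0.38).

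Tgfbr3 encodes betaglycan, a co-receptor that presents ligand to the type II receptor. Probe A_51_P255899 (chr5:107537905-107537964, minus strand) had log2 signals of -3.99 and -3.95 in Ip6k1+/+ MEFs against -4.62 and -4.56 in Ip6k1-/- MEFs. Both Ip6k1-/- lines were below both Ip6k1+/+ lines, and the lines of a genotype were within 0.04 and 0.06 of each other. The difference was -0.62 (standard error 0.32, 95% interval -1.47 to 0.22), with an unadjusted limma p of 0.116 and an adjusted p of 0.993, and it was -0.20 with normexp background correction. The signal was between 24.9 and 48.5 units, well above background on all 4 arrays but close to it, since the lowest log2 signal well above background lay between -5.20 and -4.68 on the 4 arrays. Limma draws the spread of a probe toward that of other probes of like brightness, so that the standard error is wider than the gaps between these lines.

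Of the latency proteins, Ltbp1 was at a similar level in the 4 lines and Ltbp2 was not. Ltbp1 anchors latent TGF-beta to fibrillin and fibronectin fibres, and its brighter probe A_51_P281716 on chromosome 17 had log2 signals of 2.23 and 2.44 in Ip6k1+/+ MEFs against 2.61 and 2.41 in Ip6k1-/- MEFs. The genotypes overlapped, and the difference was 0.18 (standard error 0.21, 95% interval -0.36 to 0.72). The second Ltbp1 probe, A_52_P189946, gave -1.21 and -1.18 in Ip6k1+/+ MEFs against -0.80 and -1.05 in Ip6k1-/- MEFs. There the genotypes did not overlap, but its difference of 0.27 (standard error 0.27) did not pass the test either.

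Ltbp2 belongs to the same family but is not known to bind TGF-beta itself, and acts on elastic and fibrillin fibres. Probe A_51_P257457 (chr12:86124173-86124232, minus strand) had log2 signals of 6.68 and 3.71 in Ip6k1+/+ MEFs against 6.68 and 2.60 in Ip6k1-/- MEFs. Replicate 1 was saturated in both genotypes, so that these values are floors and the gap between replicates was at least 7.85-fold in Ip6k1+/+ and at least 16.9-fold in Ip6k1-/-. Among the lines measured below saturation there was 1 per genotype, and the mean difference of -0.55 (standard error 1.65, 95% interval -4.87 to 3.76) carries the saturated values as they stand.

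Tgfbi encodes a secreted matrix protein that binds collagens and integrins and is named for its induction by TGF-beta. Probe A_51_P212754 (chr13:56740460-56740519, plus strand) had log2 signals of 4.64 and 4.30 in Ip6k1+/+ MEFs against 3.85 and 0.35 in Ip6k1-/- MEFs. Both Ip6k1-/- lines were below both Ip6k1+/+ lines, but by very unequal amounts. Ip6k1-/- replicate 1 was 1.54-fold and replicate 2 was 17.3-fold below the Ip6k1+/+ mean, and the lines of that genotype differed from each other by 11.3-fold. The mean difference was -2.37 (standard error 1.15, 95% interval -5.39 to 0.65, limma adjusted p = 0.993), and it passed the 2-fold cutoff through Ip6k1-/- replicate 2: without that line it was -0.62. Over all gene names 4.65% passed the cutoff in this direction and 13.2% had both Ip6k1-/- lines below both Ip6k1+/+ lines, as did 2 of the 10 members, Tgfbi and Tgfbr3.

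**Figure D2:**
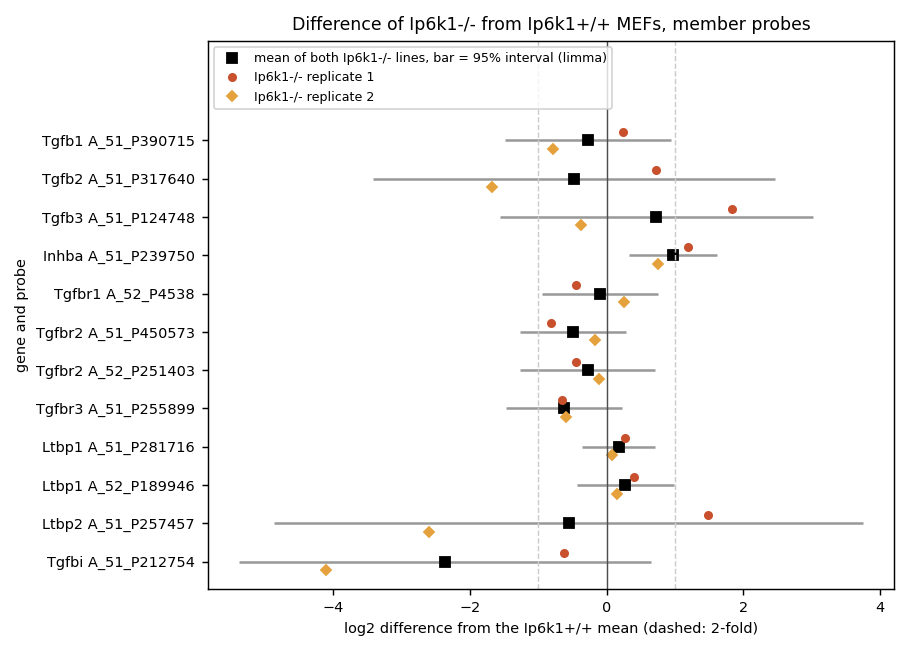
Log2 difference from the Ip6k1+/+ mean for the 12 member probes tested, with squares for the mean of both Ip6k1-/- lines, bars for its 95% interval from limma, and circles and diamonds for Ip6k1-/- replicates 1 and 2. Dashed lines mark 2-fold. The interval of Inhba runs from 0.33 to 1.61 and the others include 0. The Ip6k1-/- lines lie far apart for Tgfb2, Tgfb3, Ltbp2 and Tgfbi.

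The gap between lines of 1 genotype was larger than the difference between genotypes for 8 of the 10 members, the exceptions being Inhba and Tgfbr3, and for 80.8% of all gene names. Gaps of at least 2-fold between the Ip6k1+/+ lines occurred in 3 members, Ltbp2, Tgfb2 and Tgfb3, compared with 14% of all gene names. Between the Ip6k1-/- lines they occurred in 5 members, the same 3 with Tgfb1 and Tgfbi, compared with 12.4%. In 3 of the 10 members replicate 1 was at least 2-fold above replicate 2 in both genotypes, compared with 3.62% of all gene names. The replicate numbers are not stated to mark a shared day or batch, and by Xist and Eif2s3y the sex of the lines differed within each number.

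Several other genes showed the order of Tgfb2, Tgfb3 and Ltbp2. In 7 of the 82 other pathway genes tested replicate 1 was at least 2-fold higher in both genotypes, compared with the 3.62% of all gene names given above, among them the latent TGF-beta binding protein Ltbp3, the fibrillin Fbn2, the activin antagonist Fst, and Igfbp3, Il11 and Lox, which TGF-beta is known to induce. In 4 of the 82 replicate 2 was at least 2-fold higher in both, compared with 2.09%, namely Eng, Inhbb, Postn and Tnc. All of these were picked out with their values in view. Igfbp3 is counted through a dim reading of -6.37 in replicate 2 of Ip6k1-/-. The lowest signal called well above background on that array was -4.68. The 2-fold gap of Igfbp3 in that genotype is therefore not a measured one. The fibroblast markers Lum and Pdgfra were also higher in replicate 1 of both genotypes, whereas Thy1, Dcn and Fbln1 were higher in replicate 2 of both. Pdgfra, a growth factor receptor of mesenchymal cells, had log2 signals of 0.20 and -2.19 in Ip6k1+/+ MEFs against -1.08 and -2.33 in Ip6k1-/- MEFs. The epithelial keratin gene Krt18 ran the other way, with -0.66 and 1.56 in Ip6k1+/+ MEFs against -1.35 and 0.55 in Ip6k1-/- MEFs. Of the 7 epithelial markers 2 were tested, Krt18 and Krt5, with a summed signal of 0.68 and 2.99 times the 75th percentile of the array in the Ip6k1+/+ lines and of 0.42 and 1.50 times in the Ip6k1-/- lines, while Cdh1, Krt14 and Cldn4 were not well above background in any line, and Krt8 and Epcam were so on 1 array each. Krt5 was well above background in the Ip6k1+/+ lines alone. The summed signal of the 10 fibroblast markers lay between 419 and 432 times in Ip6k1+/+ and between 372 and 392 times in Ip6k1-/-, but most of it came from the saturated Col1a1, Col1a2 and Vim. The other 7 markers, taken alone with the data already seen, summed to 110 and 155 times in the Ip6k1+/+ lines and to 72.5 and 81.1 times in the Ip6k1-/- lines. The part of these cell states in the differences between lines was not tested.

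**Figure D3:**
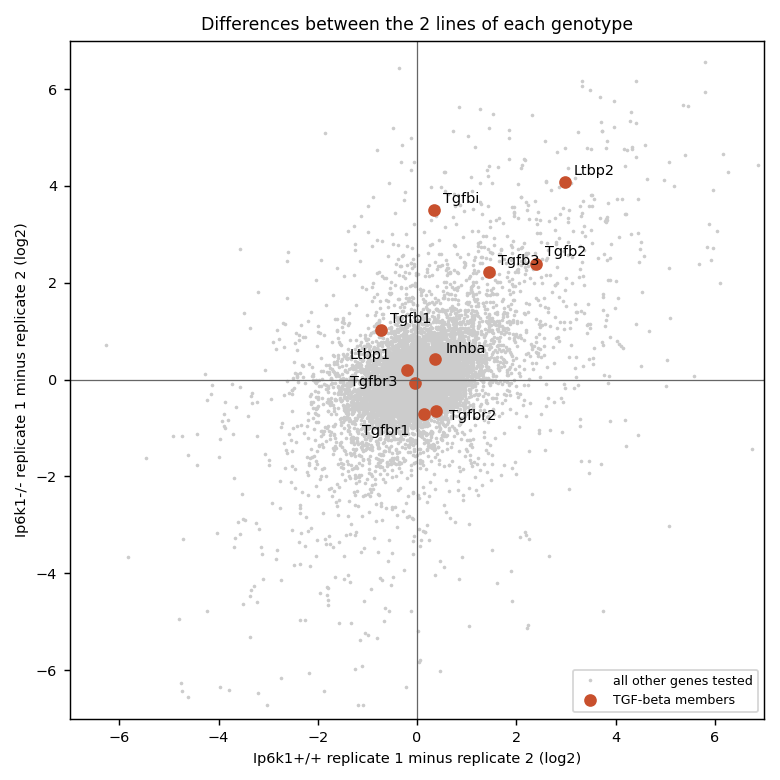
Difference between replicates 1 and 2 on the log2 scale within Ip6k1+/+ (horizontal axis) and within Ip6k1-/- (vertical axis), for the 10 members (red) and the other gene names tested (grey, of which 28 lie outside the axes). Tgfb2, Tgfb3 and Ltbp2 lie at least 1 above 0 on both axes, Tgfbi lies near 0 on the horizontal axis and well above it on the vertical one, and saturation makes the position of Ltbp2 a lower bound.

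The rest of the pathway was described through 4 lists of genes. The test was passed by 0 of their 82 genes tested, with 7 at an unadjusted limma p below 0.05, compared with 3.68% of all gene names. Each gene of these lists named below had a limma adjusted p of 0.993 or more. Of 20 genes for latency, activation and binding, 19 were on the array and 18 were tested, with a median difference of -0.24 beside 0.04 over all gene names, and of 0.25 without Ip6k1-/- replicate 2. At least 2-fold, 1 was higher and 2 were lower in Ip6k1-/- MEFs, compared with 1.82% higher and 4.65% lower among all gene names. Dcn, the proteoglycan decorin that binds and restrains TGF-beta, had log2 signals of 0.99 and 1.89 in Ip6k1+/+ MEFs against -2.09 and 0.18 in Ip6k1-/- MEFs. Its genotypes did not overlap, and the difference was -2.40 (standard error 0.82). Nrros, listed on the array as Lrrc33 and known to hold latent TGF-beta on the cell surface, had log2 signals of -3.01 and -3.02 in Ip6k1+/+ MEFs against -2.14 and -1.73 in Ip6k1-/- MEFs, a difference of 1.08 (standard error 0.32). Mmp2, a protease that can release latent ligand, had a difference of -2.22 that came from Ip6k1-/- replicate 2, at -1.04, while the other lines lay between 3.05 and 3.60. The integrin subunit genes Itgb1 and Itgb5, whose proteins take part in releasing or binding latent ligand, had differences of 0.29 (standard error 0.22) and -0.24 (standard error 0.20).

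Of 17 other ligands, receptors and antagonists, 13 were tested, with a median difference of 0.03, which became -0.14 without Ip6k1+/+ replicate 1, -0.08 without Ip6k1-/- replicate 1 and -0.10 without Ip6k1-/- replicate 2. Inhbb, the other beta subunit of activins, ran opposite to Inhba, with -0.22 and 1.07 in Ip6k1+/+ MEFs against -1.64 and -0.44 in Ip6k1-/- MEFs. Both Ip6k1-/- lines were below both Ip6k1+/+ lines, and the difference was -1.46 (standard error 0.62). Bambi, a pseudoreceptor that blocks TGF-beta type I receptors, had log2 signals of 1.29 and 1.61 in Ip6k1+/+ MEFs against 1.92 and 2.68 in Ip6k1-/- MEFs, a difference of 0.85 (standard error 0.33). The activin receptor gene Acvr2a and the inhibin alpha subunit gene Inha had differences of -0.59 (standard error 0.36) and -0.43 (standard error 0.33). The activin antagonist Fst and the co-receptor Tdgf1 met the 2-fold cutoff with genotypes that overlapped, at 1.04 (standard error 2.11) and -1.72 (standard error 1.16). Tdgf1 entered the tests through Ip6k1+/+ alone, since Ip6k1-/- replicate 1, at -5.52, was not well above background, so that its value is not a measured difference.

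SMAD proteins and their regulators had the narrowest range of the 4 lists, with differences from -0.62 to 0.42. Of 27 genes, 26 were on the array and 25 were tested, their median difference was -0.03 (0.07 without Ip6k1+/+ replicate 1), and none met the 2-fold cutoff in either direction. Smad3, the mediator most closely tied to TGF-beta responses, was lower in both Ip6k1-/- lines, at 0.88 and 1.04, than in either Ip6k1+/+ line, with a difference of -0.19 (standard error 0.21). The difference furthest from 0 was that of Tgfb1i1, a focal adhesion adaptor also called Hic-5, with 4.45 and 3.76 in Ip6k1+/+ MEFs against 3.74 and 3.22 in Ip6k1-/- MEFs, or -0.62 (standard error 0.33). Usp15 and Map3k7, a deubiquitinase and a kinase of the pathway, differed by 0.41 (standard error 0.22) and 0.39 (standard error 0.30). Smad7, Skil and Pmepa1 are feedback inhibitors that TGF-beta induces. Smad7 had log2 signals of -0.03 and -0.30 in Ip6k1+/+ MEFs against 0.12 and -0.34 in Ip6k1-/- MEFs, and its genotypes overlapped, as did those of Skil and Pmepa1. Their differences were 0.05 (standard error 0.29), 0.05 (standard error 0.30) and 0.40 (standard error 0.65).

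All 26 genes known to be induced by TGF-beta in fibroblasts were tested, with a median difference of -0.17, which became 0.21 without Ip6k1+/+ replicate 1 and 0.14 without Ip6k1-/- replicate 2. In this list 1 gene was at least 2-fold higher and 3 were at least 2-fold lower, compared with 1.82% and 4.65% of all gene names. Both Ip6k1-/- lines were above both Ip6k1+/+ lines in 2 genes and below them in 7, compared with 18.1% and 13.2% of all gene names. In the other lists these counts were 3 and 2 of 18 for latency, activation and binding, and 2 and 4 of 13 for other ligands, receptors and antagonists. They were 3 and 2 of 25 for SMADs and their regulators. At an unadjusted limma p below 0.05 there were 5 of the 26, compared with 3.68%, of which Col3a1, Col5a1, Igfbp3 and Snai1 were lower and Cdkn2b was higher. Igfbp3, a carrier of insulin-like growth factors, had log2 signals of -0.35 and -2.38 in Ip6k1+/+ MEFs against -3.98 in Ip6k1-/- replicate 1, while replicate 2 read -6.37, a value not well above background. It entered the tests through Ip6k1+/+ alone, and without it the list held 25 genes, of which 4 had an unadjusted p below 0.05, 2 were at least 2-fold lower and 6 had both Ip6k1-/- lines below both Ip6k1+/+ lines, a count added after the data were seen. Postn, the matrix protein periostin, had log2 signals of 4.78 and 6.04 in Ip6k1+/+ MEFs against 2.91 and 4.74 in Ip6k1-/- MEFs, a difference of -1.58 (standard error 0.74). Col3a1, a fibrillar collagen gene, had log2 signals of 6.24 and 5.90 in Ip6k1+/+ MEFs against 5.46 and 4.17 in Ip6k1-/- MEFs, a difference of -1.25 (standard error 0.46). Adam12, a metalloprotease gene, was dim, with log2 signals of -4.06 and -3.99 in Ip6k1+/+ MEFs against -2.22 and -3.66 in Ip6k1-/- MEFs. Both Ip6k1-/- lines were higher, but the difference of 1.09 (standard error 0.56) came mostly from replicate 1. Col5a1, Snai1 and Cdkn2b, named after their values were seen, differed by -0.52, -0.83 and 0.61.

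Ctgf, Acta2 and Tagln, widely used reporters of the pathway, had overlapping genotypes on their brightest probes. Ctgf, a matricellular growth factor, had log2 signals of 6.98 and 5.77 in Ip6k1+/+ MEFs against 6.97 and 6.44 in Ip6k1-/- MEFs, and its difference was 0.33 (standard error 0.46). The Ctgf probe was not flagged as saturated on any array. Its replicate 1 signals nevertheless lay above those of the saturated Tagln probe on the same arrays, 6.91 and 6.89, so that the difference of Ctgf is uncertain. The brightest probes of Acta2, Tagln, Col1a1, Col1a2 and Tpm1 were saturated on every array, so that no difference can be read from them. For Acta2, the smooth muscle actin of contractile fibroblasts, the brightest probe below saturation gave -0.23 (standard error 0.26). For Tagln, an actin-binding protein of the same cells, the brightest such probe gave -0.10 (standard error 0.27). Dimmer Acta2 probes, A_52_P210078 and A_52_P239556, gave -0.52 (standard error 0.24) and -0.78 (standard error 0.40). On both of these, each Ip6k1-/- line was below each Ip6k1+/+ line. With probes that were saturated on no array, a choice added after the data were seen, the list held 25 genes with a median difference of -0.26, and again 2 had both Ip6k1-/- lines above and 7 had them below both Ip6k1+/+ lines. Of the 26 genes of the list, Col1a1, Col1a2 and Col3a1 are also among the 10 fibroblast markers. Of those markers 3, namely Col3a1, Dcn and Pdgfrb, were lower in both Ip6k1-/- lines than in either Ip6k1+/+ line, compared with 13.2% of all gene names. The other markers had overlapping genotypes. Over the 10, 4 differences were positive and 6 negative. At least 2-fold, 4 markers were lower, Lum among them through a dim reading, and 1 was higher. The shares of all gene names were 4.65% and 1.82%. Unadjusted limma p-values below 0.05 were found for 3 of the 10, compared with 3.68%. Pdgfrb read 4.67 and 4.45 in Ip6k1+/+ MEFs against 3.34 and 3.39 in Ip6k1-/- MEFs. It differed by -1.20 (standard error 0.19), with limma p-values of 0.0016 before and 0.798 after adjustment. The highest difference was that of Thy1, at 1.03 (standard error 1.59). Whether the fibroblast markers take part in the differences of the list was not tested.

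**Figure D4:**
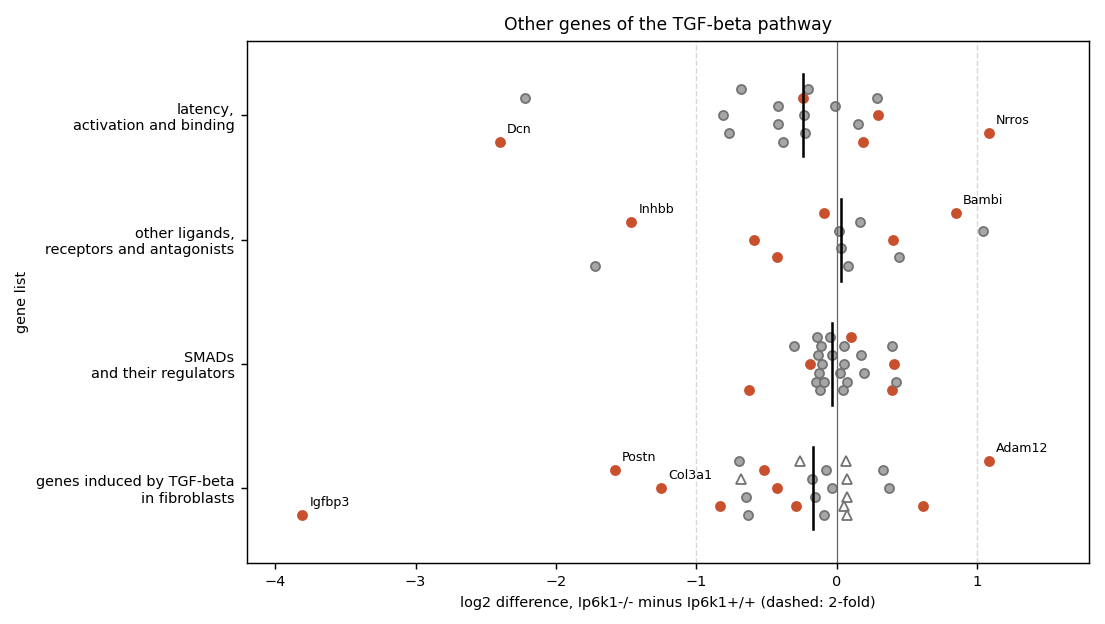
Log2 difference between Ip6k1-/- and Ip6k1+/+ MEFs (horizontal axis) for the 82 tested genes of 4 pathway lists, with 1 point per gene spread vertically at no scale. Red points have genotypes that do not overlap, grey points have genotypes that overlap, open triangles were saturated on at least 1 array, black bars are list medians and dashed lines mark 2-fold. The medians run from -0.24 to 0.03. The point furthest from 0 is Igfbp3, whose signal in Ip6k1-/- replicate 2 was not well above background, so that its position is not a measured difference.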

How the data were processed

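RNA of 2 Ip6k1+/+ and 2 Ip6k1-/- MEF lines was hybridized to 1 single-colour array each. The authors deposited the linear, background-corrected intensity of each spot as written by Feature Extraction 10.5.1.1 (per the file headers). They also deposited log2 values shifted in GeneSpring to the 75th percentile, which match those used here up to 1 constant for each array (median deviation 0.0025). Here log2 of the processed intensity was used after subtracting, per array, the 75th percentile over the 43379 non-control spots. Spots flagged as outliers were left out (96 to 133 per array), saturated spots were kept, and spots of 1 probe were averaged. Testing required a signal well above background in both lines of either genotype. A gene with several probes was represented by the tested probe with the highest mean.

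A linear model with a trended prior variance was fitted in limma 3.58.1 (R 4.3.3) to the 21573 probes that passed, p-values were adjusted over them after Benjamini and Hochberg, and the fold cutoff of 2 was applied to the mean difference. Named were Ip6k1, the members, genes of each list with non-overlapping genotypes and the largest differences (up to 4), and Smad7, Skil, Pmepa1, Ctgf, Acta2 and Tagln. One further gene that the rule named is not reported here. The members and lists were chosen with earlier results of these data known. No tested alternative used the slide as a block, since the 4 arrays share it. The number of arrays limits the precision. Cell spreading, migration and invasion assays were not analysed here.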

Additional observations from a re-analysis of the deposited data

How the results depend on the processing

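Results were recomputed with normexp background correction, quantile normalization, the median of each array in place of the 75th percentile, the deposited values, dim probes unfiltered or filtered more strictly, dim values set to a floor, outlier spots kept, a replicate block, and without each line, and calls also with the methods' t-test. No member passed the adjusted threshold under any of them. The count of member probes at 2-fold was 1, became 2 with the median of each array, where Inhba joined Tgfbi, and 3 without any 1 of the 4 lines (range 3 to 3), of which 2 were higher and 1 lower without Ip6k1+/+ replicate 1, all 3 lower without Ip6k1+/+ replicate 2 or Ip6k1-/- replicate 1, and all 3 higher without Ip6k1-/- replicate 2. Inhba (0.76 to 1.19), Tgfbi (-4.12 to -0.62), Tgfbr2 (-0.81 to -0.17), Tgfbr3 (-0.66 to -0.20) and Ltbp1 (0.07 to 0.28) kept their sign under each. Leaving out 1 line turned the sign of 5 members: Ltbp2 to 0.93 without Ip6k1+/+ replicate 1 and 1.49 without Ip6k1-/- replicate 2 (range -2.59 to 1.49), Tgfb2 to 0.72 without either of these lines (-1.67 to 0.72), Tgfb1 to 0.09 without Ip6k1+/+ replicate 2 and 0.25 without Ip6k1-/- replicate 2 (-0.78 to 0.25), and, without Ip6k1-/- replicate 1, Tgfb3 to -0.38 (-0.38 to 1.84) and Tgfbr1 to 0.26 (-0.45 to 0.26). The median of the genes induced by TGF-beta ranged from -0.47 to 0.21 without 1 line, positive without Ip6k1+/+ replicate 1 (0.21) or Ip6k1-/- replicate 2 (0.14) and -0.47 without Ip6k1-/- replicate 1. That of the other ligands, receptors and antagonists ranged from -0.14 to 0.10, and that of the SMADs and their regulators from -0.04 to 0.07, also turning to 0.01 with the median of each array. The causes were not tested beyond the lines left out. With the replicate number as a block, 0 members were called, 3 member probes had an unadjusted p below 0.05 in place of 1, and the lowest member adjusted p was 0.325, the lowest under any setting. Differences between replicates 1 and 2 correlated between genotypes across probes (r = 0.48 over 21573 probes, which are not independent). The labels do not say that the replicate numbers mark a shared batch, and the cause was not tested. Over all probes, the 3 calls of the limma test, all lower, became 0 under normexp, quantile normalization, the floor, the methods' t-test and each line left out, and 1 under either filter on dim probes. The lost calls include both called Ip6k1 probes, whose adjusted p was 0.0756 to 0.243 under normexp, quantile normalization, the floor and no filter, 0.266 to 0.694 without 1 line and up to 0.833 with the methods' t-test. Under the stricter filter they were not tested. For normexp, 5 spots of Ip6k1+/+ replicate 2 with a signal under their local background were left out. Pathway medians with unsaturated probes were added after the data were seen.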
